A study of Mus musculus with 23 samples.

Results

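The response of macrophages labelled as Stk40 knockout (KO) to lipopolysaccharide (LPS) at the latest time point was described from 6 of the 23 libraries of the study, 3 labelled KO and T32 against 3 labelled KO and T0. The cells were bone marrow-derived macrophages (BMDMs) of the mouse, grown in culture from bone marrow precursors. Libraries labelled T0 were untreated, and libraries labelled T32 were exposed to LPS. The unit of time, the strain, the age of the mice, the Stk40 allele and the dose of LPS were not given in the sources used here. Polyadenylated RNA was sequenced, the authors' raw counts per gene were tested, and all 15782 genes that passed the filter on low counts were compared. Where another time point or genotype is mentioned, it is T6 or T16 of the KO-labelled libraries (LPS, 3 libraries each) or T0 and T32 of the wild-type (WT) libraries (3 each). Whether replicates are separate mice or cultures is not stated in the labels, and the p-values therefore reflect only the spread among libraries, which may be technical. That spread was estimated in a fit to all 23 libraries, which also include WT libraries of T6 and T16 (LPS).

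LPS, a component of the outer membrane of Gram-negative bacteria, is sensed by Toll-like receptor 4 with its partner MD-2. The adaptor MyD88 leads from there to NF-kB and the inflammatory cytokines, and the adaptor TRIF leads to interferon-beta, which acts back on the cells to induce antiviral genes. Many early cytokine RNAs are short-lived, while acute-phase, metabolic and antigen-presentation genes can stay changed for longer. The pseudokinase STK40 is a partner of COP1, a ubiquitin ligase whose substrates include the transcription factors C/EBPα, C/EBPβ, c-Jun and ETV family members.

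Total counts ran from 22138128 to 38406936 in the 6 libraries and from 19455080 to 44097733 in all 23. Levels are given as CPM, counts scaled to a common library size with TMM factors, and changes as the log2 fold change of T32 over T0 with its standard error (SE) from the edgeR fit. A gene is said to have risen or fallen where the Benjamini-Hochberg adjusted p of edgeR's quasi-likelihood test was under 0.05 over all genes. KO T0 replicate 1 differed from replicates 2 and 3 of its group in its share of mitochondrial counts, 0.355% against 1.82% and 1.42%. Across genes, replicates 1 and 2 correlated at r = 0.963, and the other pairs within a group, 1 with 3 included, at r = 0.98 to 0.989. The T32 libraries had mitochondrial shares of 0.238% to 0.321%. Because these are bulk samples, fewer cells of a type and less RNA per cell cannot be told apart. Stk40 itself (ENSMUSG00000042608, chr4:126103957-126141029, plus strand, build GRCm38) was at 51.7, 61.3 and 56.5 CPM at T0 and 107, 106 and 102 CPM at T32. It rose (0.89 ± 0.15, adjusted p = 0.00012) in the libraries labelled KO, with a mean of 376 CPM at T6, and it also rose in WT from 48.1 ± 7.29 to 82.8 ± 15.1 CPM (SD, n = 3; change 0.78 ± 0.15). Loss of an exon would not be seen in counts per gene, and the genotype was taken from the labels.

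From T0 to T32, 2868 genes (18.2% of those tested) rose and 3153 (20.0%) fell, so 6021 (38.2%) changed in either direction. A change of more than 2-fold passed a test against that fold in 648 genes (4.11%) that rose and 684 (4.33%) that fell. In 4169 genes (26.4%) all 3 T32 libraries lay above all 3 T0 libraries, and in 4140 (26.2%) all lay below. The median log2 change over all genes was -0.02. With library totals in place of TMM that median moved to -0.37, 1484 genes rose and 5770 fell, and changes beyond 2-fold numbered 462 up and 1162 down. Without T0 replicate 1 the calls numbered 3332 up and 3437 down, and without T0 replicate 2 they numbered 2138 up and 2287 down. Among the 648 genes up by more than 2-fold, the mean over the KO-labelled libraries was highest at T6 for 315, at T16 for 177 and at T32 for 156. Among the 684 genes down by more than 2-fold, the mean was lowest at T32 for 385.

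The largest rises were in a cytokine receptor, an acute-phase protein, nitric oxide synthase, chemokines and a formyl peptide receptor. These are the 12 genes with the largest log2 changes among those that reached 5 CPM on average in the higher group and did not overlap between the groups. The acute-phase apolipoprotein gene Saa3 (chr7:46711998-46715700, minus strand) stood at 48, 81.8 and 72.3 CPM at T0 and 24243, 20617 and 27768 CPM at T32 (8.49 ± 0.58, adjusted p = 1.6e-09). Its highest T0 value lay far under its lowest T32 value. Ccl5 (chr11:83525778-83530518, minus strand), a chemokine for T cells and monocytes, was at 77.7, 44.5 and 49.4 CPM at T0 and 8858, 9398 and 10107 CPM at T32 (7.37 ± 0.43, adjusted p = 1.7e-10). Nos2 (chr11:78920787-78960254, plus strand), the inducible nitric oxide synthase, was at 1.46, 1.7 and 1.07 CPM at T0 and 474, 647 and 388 CPM at T32 (8.48 ± 0.99, adjusted p = 1.4e-06). Its T32 level was well under its T6 mean of 5013 CPM. Fpr1 (chr17:17876471-17883940, minus strand), a receptor for bacterial formyl peptides, was at 4.39, 3.91 and 4.82 CPM at T0 and 522, 514 and 449.8 CPM at T32 (6.82 ± 0.47, adjusted p = 1.8e-09). Ccl7, a monocyte chemoattractant, was at 18.5, 18.2 and 17.9 CPM at T0 and 1128, 1142 and 1258 CPM at T32 (6.01 ± 0.50, adjusted p = 2.0e-08). The 3 libraries of each group lay close together for both genes.

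Il23r (chr6:67422932-67491855, minus strand), a subunit of the interleukin-23 receptor, had the largest log2 change of the 12. It was at 0, 0.0346 and 0 CPM at T0 and 19.3, 27.6 and 19.4 CPM at T32 (10.59 ± 0.65, adjusted p = 3.1e-10). In summed counts this was 1 at T0 and 2229 at T32, a ratio of 2183 after scaling for library size (95% exact interval 391.4 to 86270, which covers counting error only, as reads are not independent molecules). Its mean climbed from 2.74 CPM at T6 and 7.86 at T16. Gm15056 (chr8:20900606-20902627, minus strand) had 1 count at T0 and 1149 at T32, a ratio of 1125 (95% exact interval 201.6 to 44490). Its T32 values were 8.44, 12.6 and 12.6 CPM (9.61 ± 0.83, adjusted p = 8.3e-08). Arg1 (arginase 1), which competes with nitric oxide synthase for arginine, was at 0.201, 0.139 and 0.344 CPM at T0 and 15.9, 31.7 and 17 CPM at T32 (6.55 ± 0.48, adjusted p = 4.0e-09). The mean of Arg1 was 0.694 CPM at T6 and 51.7 CPM at T16, so it peaked later than Nos2. Cxcl11, an interferon-induced gene of the chemokine family, is typed as a polymorphic pseudogene in the authors' gene annotation. Its RNA was at 2.61, 0.97 and 1.51 CPM at T0 and 86.9, 144 and 122 CPM at T32 (6.09 ± 0.61, adjusted p = 2.0e-07). The others were AC148334.2 (chr13:94289448-94295006, minus strand; 8.11 ± 0.43, adjusted p = 5.1e-11), Tarm1, a receptor of myeloid cells (5.87 ± 0.34, adjusted p = 1.5e-10), and the inositol hexakisphosphate kinase gene Ip6k3 (5.79 ± 0.53, adjusted p = 7.6e-08). The 12 genes had their highest mean at T6 in 4 cases, at T16 in 5 and at T32 in 3.

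**Figure D1:**
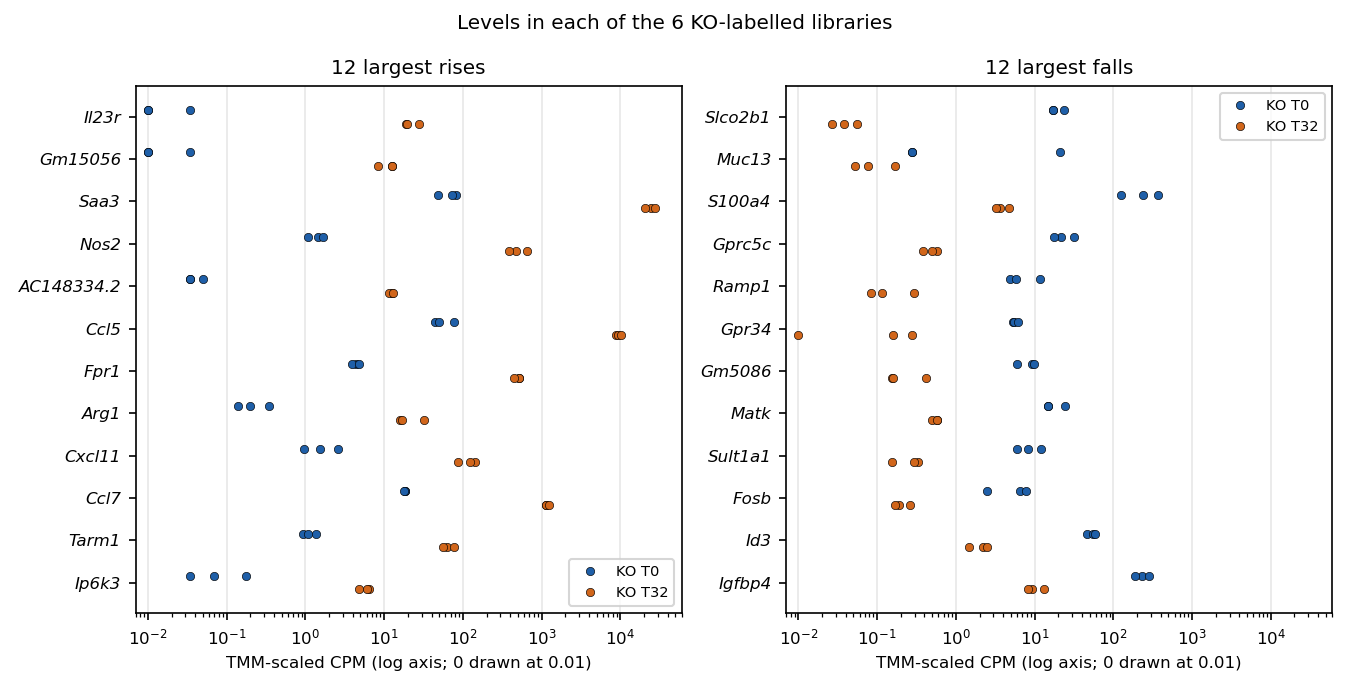
TMM-scaled CPM (log axis) of the 12 genes with the largest rises (left) and the 12 with the largest falls (right) in each of the 3 KO T0 and 3 KO T32 libraries; each point is a library and a value of 0 is drawn at 0.01. The groups do not overlap for any of the 24 genes, which was a criterion of the choice, and Muc13 has T0 replicate 2 at 21.4 CPM, far above the other 2 T0 libraries.

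The largest falls were in a transporter, an S100 protein, G protein-coupled receptors and signalling genes, chosen by the same rule. Slco2b1 (chr7:99657804-99711340, minus strand), an organic anion transporter, was at 17.2, 23.5 and 17.3 CPM at T0 and 0.0382, 0.0556 and 0.0265 CPM at T32 (-8.77 ± 0.42, adjusted p = 1.6e-11). S100a4 (chr3:90603771-90606045, plus strand), a calcium-binding protein of motile and myeloid cells, was at 126, 367 and 236 CPM at T0 and 3.67, 4.7 and 3.29 CPM at T32 (-5.97 ± 0.53, adjusted p = 4.3e-08). Igfbp4 (chr11:99041244-99054392, plus strand), which binds insulin-like growth factors, was at 229.9, 281 and 191 CPM at T0 and 9.36, 13.2 and 8.35 CPM at T32 (-4.51 ± 0.31, adjusted p = 1.8e-09). The T0 libraries of S100a4 differed among themselves by more than those of the other 2 genes, yet all lay far above the T32 values. Id3, an inhibitor of helix-loop-helix transcription factors, was at 46.6, 55.3 and 58.1 CPM at T0 and 2.22, 2.47 and 1.48 CPM at T32 (-4.70 ± 0.36, adjusted p = 8.3e-09). Gpr34, a lysophosphatidylserine receptor found on microglia and macrophages, was at 5.27, 5.44 and 6.19 CPM at T0 and 0, 0.278 and 0.159 CPM at T32 (-5.13 ± 0.70, adjusted p = 9.7e-06). Fosb, an AP-1 subunit, was at 6.55, 7.79 and 2.51 CPM at T0 and 0.191, 0.167 and 0.265 CPM at T32 (-4.72 ± 0.50, adjusted p = 4.3e-07). Of these, Id3 was still at 43.1 CPM at T6, while Gpr34 and Fosb had reached 0.752 and 1.26 CPM by then. The remaining falls were those of Gprc5c, an orphan receptor of the G protein-coupled kind (-5.57 ± 0.33, adjusted p = 2.1e-10), Ramp1, a partner of the calcitonin receptor-like receptor (-5.44 ± 0.47, adjusted p = 3.3e-08), and Gm5086 (chr13:97559971-97583996, plus strand; -5.06 ± 0.33, adjusted p = 7.3e-10). Matk, a kinase that inhibits Src family kinases (-5.04 ± 0.32, adjusted p = 4.3e-10), and Sult1a1, a phenol sulfotransferase (-5.01 ± 0.41, adjusted p = 1.9e-08), also fell. Muc13, a transmembrane mucin, was at 0.276, 21.4 and 0.275 CPM at T0 and 0.0764, 0.167 and 0.053 CPM at T32. Its fall of -6.13 ± 1.28, adjusted p = 0.00089 rested on T0 replicate 2 and was -1.43 with adjusted p = 0.12 without it. All 12 genes had their highest mean at T0.

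Most inflammatory cytokine RNAs were above their untreated level at T32 but below their level at T6. Of 20 members tested, 12 rose (background 18.2%) and 1 fell (background 20.0%), and 9 rose by more than 2-fold (background 4.11%). The median log2 change was 1.68, against -0.02 over all genes. Il1rn, the antagonist of the interleukin-1 receptor, was at 111, 44.5 and 76.4 CPM at T0 and 1705, 1781 and 1872 CPM at T32 (4.53 ± 0.32, adjusted p = 2.0e-09). Tnf (tumour necrosis factor) was at 31.7, 39.7 and 41.5 CPM at T0 and 177, 139 and 167 CPM at T32 (2.10 ± 0.24, adjusted p = 1.1e-06). Ebi3, a subunit shared by interleukins 27 and 35, was at 51.5, 92.9 and 75.7 CPM at T0 and 198, 187 and 223 CPM at T32 (1.46 ± 0.30, adjusted p = 0.00085). None of these overlapped between the groups. Il1b (interleukin-1β) was at 3.71, 6.34 and 3.58 CPM at T0 and 149, 123 and 143 CPM at T32 (4.93 ± 0.36, adjusted p = 3.3e-09). Il1a (interleukin-1α) was at 2.76, 0.727 and 0.895 CPM at T0 and 75.2, 57.4 and 93 CPM at T32 (5.63 ± 0.47, adjusted p = 2.3e-08). Il6 (interleukin-6) was at 0.0753, 0.139 and 0.0344 CPM at T0 and 1.15, 1.47 and 1.96 CPM at T32 (4.17 ± 0.59, adjusted p = 1.6e-05). In all 12 cytokine genes that rose, the mean was highest at T6, with 1548 CPM for Tnf, 1250.2 for Il1b and 97 for Il6. Il10, an anti-inflammatory cytokine, was at 23.3, 27.7 and 27.1 CPM at T0 and 53, 49.3 and 58.2 CPM at T32 but did not pass the test (1.04 ± 0.42, adjusted p = 0.055). With about the same change it passed in the fits to the 12 KO libraries (adjusted p = 0.0092) and to the 6 libraries (0.00039, and 0.0016 with the replicate block) and with DESeq2 (0.035). Lif, of the interleukin-6 family, fell (-1.59 ± 0.51, adjusted p = 0.020), a call that was lost without T0 replicate 2, or T32 replicate 1 or 3 (-1.45 to -1.21, adjusted p = 0.072 to 0.11).

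**Figure D2:**
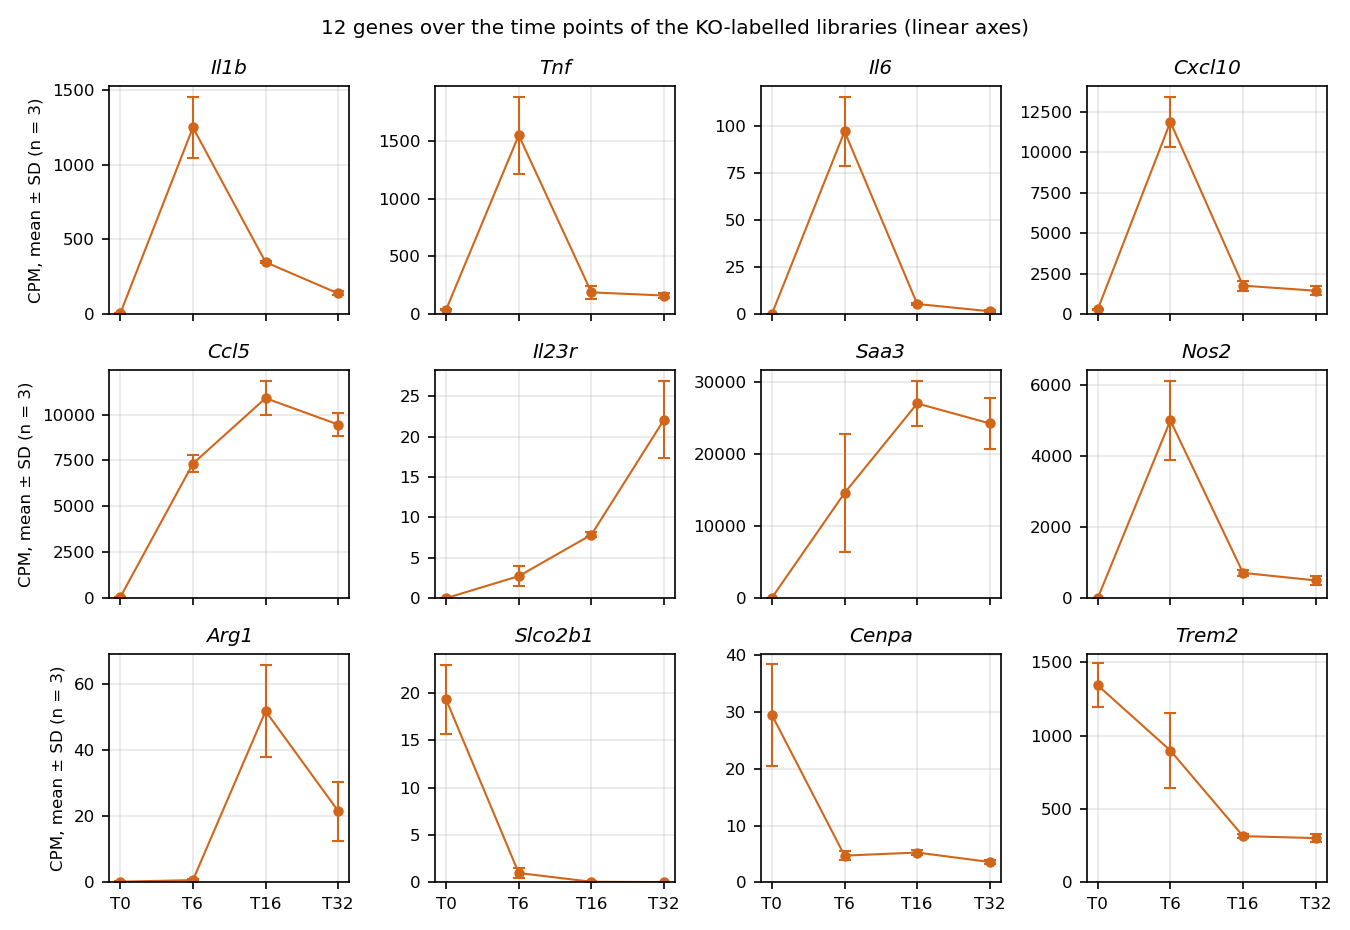
Mean CPM ± SD (n = 3 libraries, linear axes from 0) of 12 genes at T0, T6, T16 and T32 of the KO-labelled libraries. Il1b, Tnf, Il6, Cxcl10 and Nos2 are highest at T6, Ccl5, Saa3 and Arg1 at T16 and Il23r at T32, while Slco2b1, Cenpa and Trem2 are highest at T0.

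Chemokines, which attract leukocytes, were higher at T32 in most members. Of 19 tested, 15 rose and none fell by edgeR's test, against 18.2% and 20.0% of all genes. Rises beyond 2-fold numbered 10 (4.11% of all genes), and the median log2 change was 1.89. Under library totals 13 rose and 1 fell, and without T0 replicate 1 the counts were 14 and 1. The summed level of the list was 2500 to 3107 CPM in the T0 libraries and 15779 to 18248 CPM at T32. Ccl5 and Ccl7 are given above. Cxcl10, a chemokine for activated T cells, was at 343, 240.0 and 278 CPM at T0 and 1206, 1743 and 1389.5 CPM at T32 (2.33 ± 0.46, adjusted p = 0.00056), against 11873 CPM at T6. Ccl2, the main monocyte chemoattractant, was at 15.4, 17.9 and 16.7 CPM at T0 and 737, 884 and 800.0 CPM at T32 (5.60 ± 0.39, adjusted p = 2.1e-09), and its T32 mean exceeded that at T6 (585 CPM). Of the 15 that rose, 11 were highest at T6, 1 at T16 and 3 at T32. The per-length level (nRPKM, the authors' size-factor-adjusted RPKM) of Ccl5 at T32 was 15520.0, above that of Saa3 at 8109 and of Cxcl10 at 832.

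Among genes of the LPS receptor complex, the receptor and co-receptor did not pass the test, whereas the adaptor Myd88 and the inhibitor Irak3 rose. Of 15 members tested, 6 rose and none fell by edgeR's test (18.2% and 20.0% of all genes), with a median log2 change of 0.40. Under library totals, however, 3 rose and 3 fell and the median was 0.05. Tlr4, the receptor, was at 95.8, 52.3 and 69.4 CPM at T0 and 78.6, 98.6 and 83 CPM at T32 and did not pass (0.26 ± 0.24, adjusted p = 0.41), and its sign turned under library totals (-0.078). Cd14, the co-receptor, was at 235, 327 and 316 CPM at T0 and 288, 268 and 249.6 CPM at T32 and did not pass either (-0.12 ± 0.16, adjusted p = 0.56), although it fell under library totals (-0.48, adjusted p = 0.022), and its mean was 3259 CPM at T6. Both genes overlapped between the groups. Irak3 (IRAK-M), a negative regulator of the pathway, was at 34.6, 31.8 and 31.1 CPM at T0 and 250.2, 203 and 218 CPM at T32 (2.78 ± 0.17, adjusted p = 3.4e-10). Myd88, the adaptor, was at 165, 169.6 and 159 CPM at T0 and 296, 279 and 286 CPM at T32 (0.80 ± 0.15, adjusted p = 0.00031). Irak2, a kinase of the same complex, was at 56.1, 45 and 47.5 CPM at T0 and 70.6, 72.8 and 64.1 CPM at T32 (0.48 ± 0.18, adjusted p = 0.043). The call of Irak2 was lost without T0 replicate 2 or 3, or T32 replicate 1, 2 or 3 (0.42 to 0.54, adjusted p = 0.053 to 0.15), and it was 0.14 under library totals, adjusted p = 0.54. Irak3 was the member with the largest change and the only 1 of the 6 beyond 2-fold.

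Genes of the NF-kB family and its inhibitors rose in 11 of 15 members and 1 fell, against 18.2% and 20.0% of all genes. Of the rises, 3 were by more than 2-fold (4.11% of all genes). The median log2 change was 0.78, and under library totals 7 rose and 1 fell. Tnfaip3 (A20), a deubiquitinase that restrains NF-kB signalling, was at 90.7, 60.9 and 92.6 CPM at T0 and 269, 239 and 273 CPM at T32 (1.68 ± 0.19, adjusted p = 9.0e-07). Nfkbia (IκBα), the inhibitor that retains NF-kB in the cytoplasm, was at 135, 214 and 199 CPM at T0 and 410.1, 375 and 455 CPM at T32 (1.18 ± 0.24, adjusted p = 0.00057). Ikbke, a kinase that acts towards interferon induction, was at 359, 686 and 438 CPM at T0 and 919.7, 808 and 874 CPM at T32 (0.81 ± 0.23, adjusted p = 0.0092), a call lost under the other scaling (0.45 under library totals, adjusted p = 0.10). The inhibitor Nfkbid was the member that fell (-0.76 ± 0.26, adjusted p = 0.028), a call that was lost without T0 replicate 2, or T32 replicate 1, 2 or 3 (-0.79 to -0.40, adjusted p = 0.060 to 0.26). Rela, the p65 subunit, was at 165, 157 and 173 CPM at T0 and 187, 168 and 186 CPM at T32 and did not pass (0.13 ± 0.13, adjusted p = 0.46), and its sign turned under library totals (-0.22). All 11 that rose had their highest mean at T6. Promoters were searched for the NF-kB motif (by its name, in both strands) over the 250 bases before the RefSeq start of the gene. These were available for 10566 of 15770 tested genes with distinct symbols. The motif was found in 7 of the 12 NF-kB family promoters available and in 5 of 11 of the chemokines. It was in 4.62% of all promoters and in 9.91% of the 434 available among genes that rose by more than 2-fold. A match describes letters and not a site of binding. The promoters of Tnfaip3 (chr10:19015411-19015660, minus strand) and Cxcl10 (chr5:92348890-92349139, minus strand) are shown because both hold the NF-kB motif on more than 1 position. RefSeq starts can lie inside the gene positions given elsewhere, which are from GENCODE. The GENCODE span of Tnfaip3 (chr10:19000910-19015657) holds most of its window and both matches. Sequences are from RefSeq on GRCm38.p6, written 5′ to 3′ on the strand of the gene. Capitals mark matches to the NF-kB motif and, in Cxcl10, also to the interferon-stimulated response element.
Tnfaip3: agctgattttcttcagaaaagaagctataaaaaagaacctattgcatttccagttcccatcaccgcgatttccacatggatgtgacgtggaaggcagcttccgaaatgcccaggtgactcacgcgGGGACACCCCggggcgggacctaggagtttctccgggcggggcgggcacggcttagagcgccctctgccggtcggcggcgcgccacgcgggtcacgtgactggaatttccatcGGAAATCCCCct
Cxcl10: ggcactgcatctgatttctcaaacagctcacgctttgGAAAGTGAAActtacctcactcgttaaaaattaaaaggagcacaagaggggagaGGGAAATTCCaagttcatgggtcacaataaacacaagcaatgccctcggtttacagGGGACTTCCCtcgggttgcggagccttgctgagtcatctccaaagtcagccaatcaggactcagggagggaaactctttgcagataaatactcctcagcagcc

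Feedback regulators of inflammatory signalling rose in 7 of 13 members and fell in 1, against 18.2% and 20.0% of all genes. Of the rises, 3 were beyond 2-fold (4.11% of all genes), and the median log2 change was 0.70. Socs3, which blocks signalling by interleukin-6 type receptors, was at 9.09, 12.7 and 8.05 CPM at T0 and 447, 376 and 396 CPM at T32 (5.35 ± 0.26, adjusted p = 1.6e-11). Cd274 (PD-L1), an inhibitory ligand for T cells, was at 351, 173 and 243 CPM at T0 and 2019, 2285 and 1892 CPM at T32 (3.01 ± 0.23, adjusted p = 5.1e-09). Sbno2, a co-regulator in the interleukin-10 response, was at 177, 230.3 and 186 CPM at T0 and 338, 313 and 310.1 CPM at T32 (0.70 ± 0.12, adjusted p = 0.00018). These 3 did not overlap between the groups. Il10ra, the interleukin-10 receptor chain, fell, from 372, 558 and 498 to 251, 257 and 238 CPM (-0.94 ± 0.19, adjusted p = 0.00077).

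Genes of the COP1 system, to which STK40 belongs, moved both ways. Of 17 tested, 7 rose and 2 fell, against 18.2% and 20.0% of all genes. The median log2 change of 0.19 turned to -0.15 under library totals, where 6 rose and 3 fell. COP1 itself, listed under its older symbol Rfwd2, did not pass. Cebpb (C/EBPβ), a COP1 substrate and an activator of acute-phase and cytokine genes, was at 43.7, 80.7 and 66.2 CPM at T0 and 176, 173 and 196 CPM at T32 (1.52 ± 0.33, adjusted p = 0.0012). Cebpa (C/EBPα), a substrate that directs myeloid differentiation, was at 168, 112 and 119.5 CPM at T0 and 42.4, 38.3 and 40.5 CPM at T32 (-1.72 ± 0.16, adjusted p = 1.1e-07). The 2 genes thus moved in opposite directions with no overlap between groups, and Cebpa was lowest at T6 (3.91 CPM). Trib1, a pseudokinase adaptor of COP1, was at 59.2, 79.1 and 75.6 CPM at T0 and 149.8, 122 and 124 CPM at T32 (0.89 ± 0.22, adjusted p = 0.0039). The ETS factor genes Etv5 (2.48 ± 0.25, adjusted p = 2.4e-07), Etv1 (2.73 ± 0.23, adjusted p = 2.2e-08) and Ets2 (2.04 ± 0.17, adjusted p = 2.8e-08) rose. Cebpd, a related C/EBP factor, fell (-1.0 ± 0.38, adjusted p = 0.044), a call that was lost without T0 replicate 2 or 3, or T32 replicate 1, 2 or 3 (-1.05 to -0.69, adjusted p = 0.079 to 0.23).

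Antiviral genes induced by interferon rose in 29 of 30 members and fell in none by edgeR's test, against 18.2% and 20.0% of all genes. Rises beyond 2-fold numbered 11 (4.11% of all genes). The median log2 change was 1.20. Under library totals 23 rose and 1 fell, and without T0 replicate 1 the counts were 28 and 1. Their summed level was 11499 to 15459 CPM in the T0 libraries and 38903 to 47860 CPM at T32. Slfn4, a Schlafen gene with near-identical relatives whose reads could be split in counting, was at 383, 399.8 and 786 CPM at T0 and 6019, 7016 and 5594 CPM at T32 (3.57 ± 0.38, adjusted p = 4.3e-07). Rsad2 (viperin) was at 1028, 742 and 895 CPM at T0 and 4742, 6955 and 4811 CPM at T32 (2.63 ± 0.35, adjusted p = 7.1e-06). Irf7, the transcription factor that amplifies interferon production, was at 2073, 1360.4 and 1321 CPM at T0 and 4289.8, 4490.2 and 4469 CPM at T32 (1.48 ± 0.24, adjusted p = 7.3e-05). T0 levels were already high for each, and the T32 libraries lay above them without overlap. Ifit1, which binds viral RNA, was at 439.9, 259 and 364 CPM at T0 and 1211, 1739 and 1297 CPM at T32 (2.0 ± 0.24, adjusted p = 1.8e-06). Isg15, a ubiquitin-like modifier, was at 365, 301 and 385 CPM at T0 and 1104, 1227 and 1290.0 CPM at T32 (1.78 ± 0.33, adjusted p = 0.00026). Of the 29 that rose, 25 were highest at T6 and 4 at T16. Oas2, which makes an activator of RNase L, did not pass (-0.40 ± 0.21, adjusted p = 0.14), but fell under library totals (-0.77, adjusted p = 0.0071) and without T0 replicate 1 (-0.61, adjusted p = 0.021).

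Guanylate-binding proteins (GBPs) and immunity-related GTPases (IRGs), which act against intracellular pathogens, rose in 12 of 12 members (18.2% of all genes). Rises beyond 2-fold numbered 8 (4.11% of all genes). The median log2 change was 2.04, and 12 also rose under library totals. Gbp2 was at 338, 139 and 196 CPM at T0 and 934, 1138 and 1174 CPM at T32 (2.27 ± 0.33, adjusted p = 2.0e-05). Irgm1, a regulator of the other IRGs, was at 409.7, 226 and 304 CPM at T0 and 576, 676 and 584 CPM at T32 (0.97 ± 0.22, adjusted p = 0.0016). Ifi47, another IRG, was at 340.0, 139 and 173 CPM at T0 and 441, 507 and 473 CPM at T32 (1.13 ± 0.34, adjusted p = 0.013), and its call was lost without T0 replicate 2 or 3 (0.88 to 0.98, adjusted p = 0.060 to 0.077). T0 replicate 1 was the highest of the T0 libraries in all 3 genes. All 12 were highest at T6, Gbp5 for example at 3318 CPM against 376, 488 and 421 CPM at T32. The interferon-stimulated response element (ISRE, by its name, both strands) was found in 8 of 9 available promoters of the GBP and IRG list, in 9 of 21 of the antiviral list and in 2.92% of all 10566 promoters. It was in 10.8% of the 434 promoters of genes that rose by more than 2-fold and in 2.95% of the 475 of genes that fell by more than 2-fold. By GENCODE, Gbp2 starts at 142620602, within its window, and its match lies after that start. The promoters of Ifit1 (chr19:34640639-34640888, plus strand) and Gbp2 (chr3:142620413-142620662, plus strand) show the element before the RefSeq start in a member of each list, with its matches in capitals.
Ifit1: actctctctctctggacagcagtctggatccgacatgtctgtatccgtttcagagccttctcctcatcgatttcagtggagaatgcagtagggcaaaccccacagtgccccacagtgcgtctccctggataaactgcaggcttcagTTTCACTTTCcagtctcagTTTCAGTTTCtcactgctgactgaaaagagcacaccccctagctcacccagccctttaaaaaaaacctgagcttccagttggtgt
Gbp2: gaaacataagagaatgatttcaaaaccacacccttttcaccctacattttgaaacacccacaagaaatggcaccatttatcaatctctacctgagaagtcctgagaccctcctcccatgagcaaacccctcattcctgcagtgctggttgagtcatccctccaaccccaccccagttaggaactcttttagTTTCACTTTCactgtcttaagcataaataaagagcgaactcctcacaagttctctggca

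**Figure D3:**
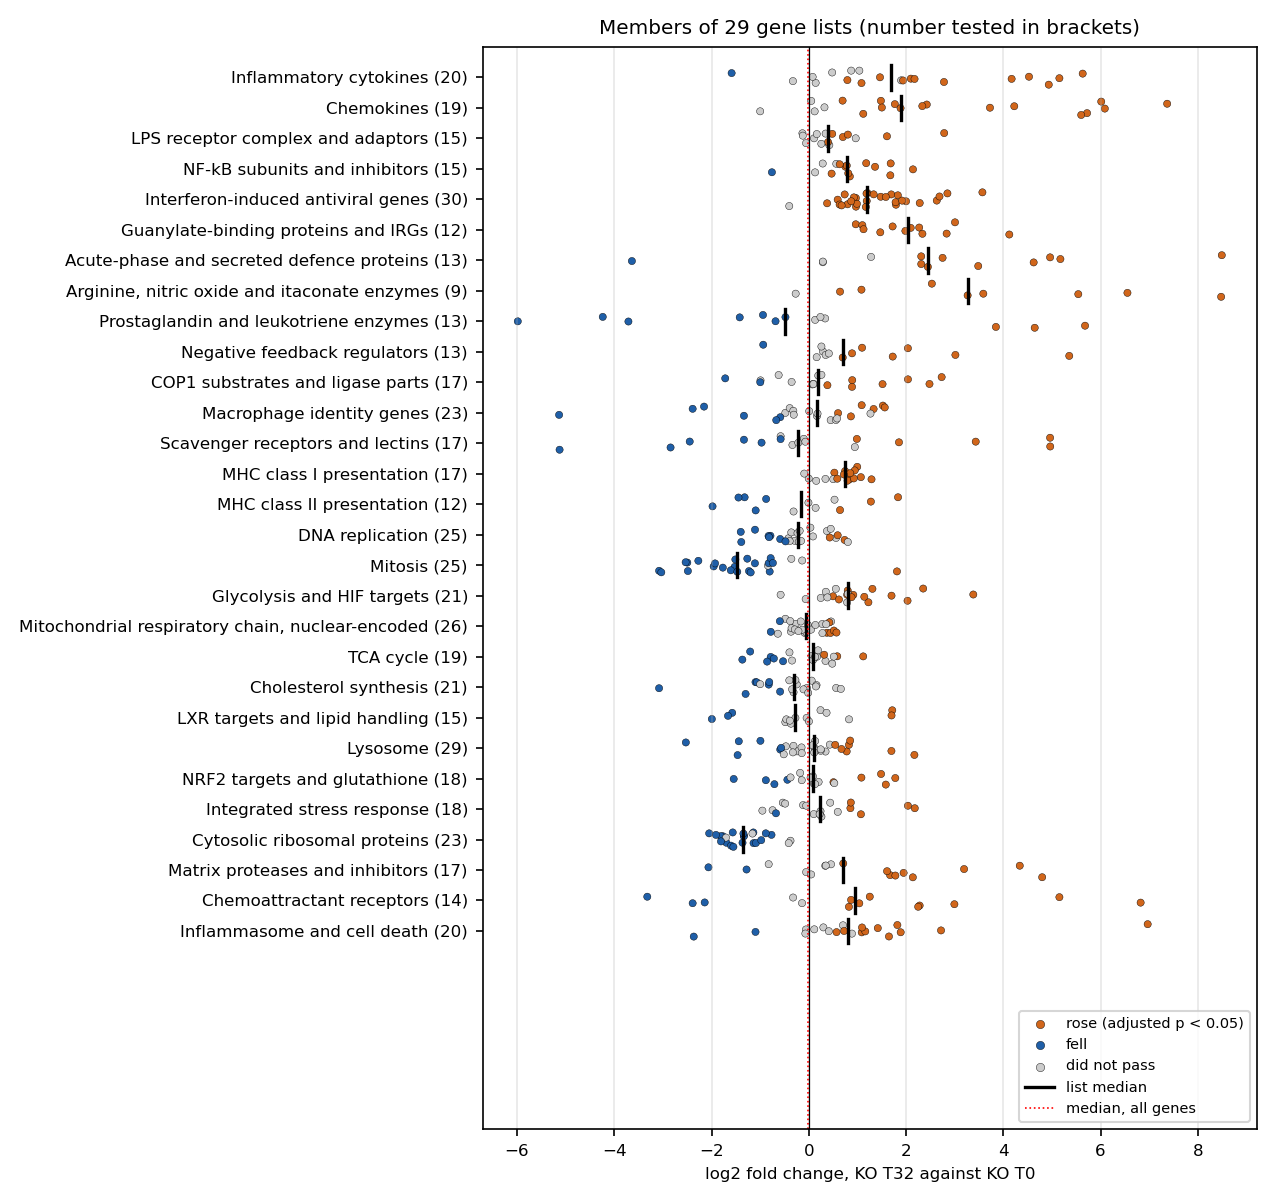
Log2 fold change of KO T32 against KO T0 for each tested member (points, coloured by the edgeR call) of 29 gene lists, with the list median as a black bar and the median of all genes as a dotted line at -0.02. The medians of acute-phase genes (2.45), arginine and itaconate enzymes (3.27) and GBPs (2.04) lie to the right, and those of mitosis (-1.47) and ribosomal protein genes (-1.34) to the left.

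Among effector genes, acute-phase and secreted defence proteins rose in 9 of 13 members and fell in 1, against 18.2% and 20.0% of all genes. All 9 rose by more than 2-fold (4.11% of all genes), and the median log2 change was 2.45. Their summed level of 352 to 486 CPM at T0 reached 23040 to 29951 CPM at T32, most of it from Saa3. C3, the central complement component, was at 321, 189.6 and 174 CPM at T0 and 1089, 1238 and 1068 CPM at T32 (2.31 ± 0.38, adjusted p = 9.2e-05). Lcn2 (lipocalin 2), which sequesters bacterial siderophores, was at 57.8, 42.1 and 35 CPM at T0 and 505, 382 and 622 CPM at T32 (3.48 ± 0.35, adjusted p = 2.1e-07). Marco, a scavenger receptor counted in the same list, was at 3.99, 18.6 and 13.5 CPM at T0 and 490.0, 485 and 144 CPM at T32 (4.96 ± 0.80, adjusted p = 7.2e-05). The third T32 library of Marco was well under the other 2 but above every T0 library. The antimicrobial peptide gene Camp fell (-3.64 ± 0.43, adjusted p = 1.6e-06), and it is also a neutrophil marker.

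Enzymes of arginine, nitric oxide and itaconate metabolism rose in 8 of 9 members (18.2% of all genes). Of these, 6 rose by more than 2-fold (4.11% of all genes), and the median log2 change was 3.27. Acod1, which makes the antimicrobial metabolite itaconate, was at 49.5, 43.3 and 50.9 CPM at T0 and 2237, 2519 and 1932 CPM at T32 (5.54 ± 0.33, adjusted p = 2.1e-10). Gch1, which makes the cofactor of nitric oxide synthase, was at 43.4, 33.7 and 41.3 CPM at T0 and 79, 82.6 and 89.3 CPM at T32 (1.08 ± 0.19, adjusted p = 0.00021). Ass1 (2.53 ± 0.30, adjusted p = 1.5e-06), which recycles citrulline to arginine, rose as well. Asl, the next enzyme of that cycle, did not pass (-0.27 ± 0.14, adjusted p = 0.13), but fell under library totals (-0.62, adjusted p = 0.00096).

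Prostaglandin and leukotriene enzymes moved both ways. Of 13 tested, 3 rose (18.2% of all genes), all by more than 2-fold, and 7 fell (20.0% of all genes), 3 by more than 2-fold. Ptges (inducible prostaglandin E synthase) was at 4.39, 7.65 and 6.13 CPM at T0 and 309, 294 and 325 CPM at T32 (5.68 ± 0.23, adjusted p = 1.8e-12). Ptgs2 (cyclooxygenase 2) was at 0.853, 0.9 and 1.03 CPM at T0 and 23.9, 26.5 and 19.3 CPM at T32 (4.64 ± 0.48, adjusted p = 3.1e-07), and Pla2g4a, the phospholipase that frees arachidonic acid, rose too (3.85 ± 0.34, adjusted p = 3.9e-08). Ptgs1 (cyclooxygenase 1) fell, from 36.9, 49.7 and 35.2 to 2.75, 3.86 and 2.68 CPM (-3.71 ± 0.27, adjusted p = 2.9e-09). The inducible and the constitutive cyclooxygenase moved in opposite directions. Alox5ap, which presents arachidonic acid to 5-lipoxygenase, was at 320.4, 434 and 347 CPM at T0 and 191, 257 and 238 CPM at T32 (-0.68 ± 0.16, adjusted p = 0.0027). Hpgds (haematopoietic prostaglandin D synthase) was at 177, 211 and 198 CPM at T0 and 90.8, 112 and 101 CPM at T32 (-0.94 ± 0.14, adjusted p = 2.7e-05). Ltc4s (leukotriene C4 synthase; -4.24 ± 0.38, adjusted p = 5.3e-08) and the prostaglandin-degrading enzyme Hpgd (-5.98 ± 0.78, adjusted p = 5.4e-06) were among the falls beyond 2-fold.

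Matrix proteases and their inhibitors rose in 9 of 17 members and fell in 2, against 18.2% and 20.0% of all genes. The median log2 change was 0.71. Mmp14, a membrane-bound metalloproteinase, was at 25.7, 18.9 and 24.7 CPM at T0 and 481, 435 and 486 CPM at T32 (4.34 ± 0.24, adjusted p = 1.0e-10). Timp2, an inhibitor of metalloproteinases, was at 847, 617 and 678 CPM at T0 and 263, 274 and 345 CPM at T32 (-1.28 ± 0.20, adjusted p = 4.7e-05). Adam8, a sheddase, was at 1228, 1256 and 1149 CPM at T0 and 2061, 2246 and 1630.2 CPM at T32 (0.71 ± 0.20, adjusted p = 0.0087) and lost its call under the other scaling (0.36 under library totals, adjusted p = 0.13). Mmp14 and its inhibitor Timp2 moved in opposite directions without overlap. The macrophage elastase gene Mmp12 fell (-2.06 ± 0.33, adjusted p = 5.7e-05).

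Genes of inflammasomes and cell death rose in 11 of 20 members and fell in 2, against 18.2% and 20.0% of all genes. Of the rises, 6 were by more than 2-fold (4.11% of all genes), and the median log2 change was 0.81. Cflar (cFLIP), an inhibitor of caspase 8, was at 91.6, 76.7 and 86.6 CPM at T0 and 548, 584 and 546 CPM at T32 (2.72 ± 0.15, adjusted p = 1.0e-10). Casp1, the caspase that matures interleukin-1β, was at 132, 113 and 112 CPM at T0 and 341, 393 and 385 CPM at T32 (1.65 ± 0.18, adjusted p = 6.6e-07). Nlrp3, the sensor of the inflammasome of that name, was at 27.5, 31.5 and 29 CPM at T0 and 116, 100.1 and 109.9 CPM at T32 (1.89 ± 0.21, adjusted p = 7.6e-07). Bcl2l11 (BIM), a pro-apoptotic protein, fell, from 207, 164 and 178 to 80.8, 98.5 and 77.9 CPM (-1.10 ± 0.14, adjusted p = 4.3e-06).

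Chemoattractant receptors rose in 9 of 14 members and fell in 3, against 18.2% and 20.0% of all genes. The share of falls was thus near that of all genes. Beyond 2-fold were 5 rises and all 3 falls, against 4.11% and 4.33% of all genes. Under library totals 7 rose and 5 fell. Fpr1 led the rises, and Fpr2, its relative, rose as well (5.15 ± 0.33, adjusted p = 5.9e-10). C3ar1, the receptor of complement fragment C3a, was at 1608, 968 and 1172 CPM at T0 and 2133, 2563 and 1945 CPM at T32 (0.83 ± 0.27, adjusted p = 0.023). The call of C3ar1 was lost without T0 replicate 2 or 3, or T32 replicate 2 (0.67 to 0.78, adjusted p = 0.071 to 0.11), and it was 0.49 under library totals, adjusted p = 0.13. Cxcr4, the receptor of Cxcl12, fell from 239, 165 and 198 to 18.8, 26.3 and 15.1 CPM (-3.32 ± 0.34, adjusted p = 2.5e-07). Ccr2, the receptor for Ccl2 and Ccl7, fell from 77.7, 185 and 133 to 20.7, 42.9 and 25.9 CPM (-2.14 ± 0.34, adjusted p = 6.4e-05). Ccr2 thus fell while its ligand genes Ccl2 and Ccl7 rose.

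Macrophage identity genes were abundant in all 6 libraries, with a summed level of 30587 to 42268 CPM at T0 and 32860 to 33480 CPM at T32. Of 23 identifiers tested (22 symbols, as Itgam has 2), 6 rose and 6 fell, against 18.2% and 20.0% of all genes. Of the falls, 3 were by more than 2-fold (4.33% of all genes). Under library totals 3 rose and 10 fell, and the median log2 change of 0.17 turned to -0.18. Adgre1 (F4/80), a surface receptor used to define mouse macrophages, was at 1646, 767 and 896 CPM at T0 and 3373, 3192 and 2950.3 CPM at T32 (1.52 ± 0.36, adjusted p = 0.0023). Fcgr1, the high-affinity antibody receptor, was at 1102, 780.1 and 898 CPM at T0 and 2319.9, 2401 and 2281 CPM at T32 (1.33 ± 0.21, adjusted p = 5.0e-05). Csf1r, the receptor for the growth factor of macrophages, fell and was at 3007, 2548 and 2173 CPM at T0 and 1690.1, 1646 and 1524 CPM at T32 (-0.67 ± 0.20, adjusted p = 0.012). Trem2, a lipid-sensing receptor, fell further, from 1170.4, 1427 and 1435 to 271, 309.7 and 326 CPM (-2.15 ± 0.20, adjusted p = 7.6e-08). Cd68 was at 2099.6, 848 and 940.0 CPM at T0 and 1373, 1448 and 1581 CPM at T32, with T0 replicate 1 above all others, and did not pass (0.18 ± 0.33, adjusted p = 0.69). Its sign turned under library totals (-0.14) and without T0 replicate 2 (-0.051). Scavenger receptors and lectins rose in 5 of 17 members and fell in 6 (18.2% and 20.0% of all genes), with a median of -0.22 that was -0.57 under library totals, where 5 rose and 8 fell. Msr1, a scavenger receptor for modified lipoproteins, was at 112, 116 and 135 CPM at T0 and 1316, 1288 and 1309.7 CPM at T32 (3.43 ± 0.16, adjusted p = 1.6e-11). Clec4d, a C-type lectin, was at 702, 825 and 901 CPM at T0 and 1507, 1671 and 1638 CPM at T32 (0.99 ± 0.16, adjusted p = 9.1e-05). Stab1 fell (-0.58 ± 0.21, adjusted p = 0.032), a call that was lost without T0 replicate 2, or T32 replicate 1, 2 or 3 (-0.64 to -0.31, adjusted p = 0.051 to 0.27). Mrc1, the mannose receptor, fell from 269, 192 and 206 to 74.3, 92.8 and 97.5 CPM (-1.33 ± 0.25, adjusted p = 0.00036).

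Antigen presentation genes of class I rose in 12 of 17 members and fell in none by edgeR's test. The shares over all genes were 18.2% and 20.0%. No change of the list passed the test against 2-fold. The median log2 change was 0.75, and under library totals 7 rose and 1 fell. Without T0 replicate 2, 7 rose. B2m, the light chain of class I molecules, was at 4913, 2534 and 2957 CPM at T0 and 7737, 9005 and 8686 CPM at T32 (1.29 ± 0.27, adjusted p = 0.00095). H2-K1, a class I heavy chain, was at 3812, 3558 and 3996 CPM at T0 and 6118, 6154 and 7479.6 CPM at T32 (0.80 ± 0.20, adjusted p = 0.0032). H2-D1, another heavy chain, was at 6070.1, 3442 and 4716 CPM at T0 and 6862, 6572 and 7923 CPM at T32 (0.59 ± 0.19, adjusted p = 0.018), and its call was lost without T0 replicate 2 or 3, or T32 replicate 3 (0.40 to 0.58, adjusted p = 0.051 to 0.12). Heavy chain genes resemble each other, so reads could be split between them. Class II genes moved both ways. Of 12 tested, 3 rose and 5 fell, against 18.2% and 20.0% of all genes. Under library totals 1 rose and 6 fell. Falls numbered 3 without T0 replicate 1, without T0 replicate 2 or without T32 replicate 2, and 2 without T32 replicate 1. Ctss, the protease that trims the invariant chain, was at 6632, 3547 and 5463 CPM at T0 and 7241, 8464 and 8709 CPM at T32 (0.64 ± 0.17, adjusted p = 0.0067), lost under the other scaling (0.31 under library totals, adjusted p = 0.11). H2-Ab1, a class II chain, was at 75.2, 92.7 and 57.3 CPM at T0 and 25.7, 30.1 and 49.8 CPM at T32 (-1.09 ± 0.31, adjusted p = 0.0087), a call lost without T32 replicate 1 (-0.91, adjusted p = 0.051). Cd74, the invariant chain, was at 363, 277 and 195 CPM at T0 and 103, 153 and 199 CPM at T32 (-0.88 ± 0.30, adjusted p = 0.024), and its groups overlapped. The call of Cd74 was lost without T0 replicate 1 or 2, or T32 replicate 1 or 2 (-0.88 to -0.64, adjusted p = 0.054 to 0.12). H2-Eb1 was the class II gene that fell by more than 2-fold, from 58.8, 69.3 and 50.7 to 9.24, 15.7 and 20.2 CPM (-1.98 ± 0.31, adjusted p = 5.5e-05).

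Genes of mitosis fell in 21 of 25 members and rose in 1, against 20.0% and 18.2% of all genes. Of the falls, 8 were by more than 2-fold (4.33% of all genes), and the median log2 change was -1.47. The range over left-out libraries was 18 to 22 falls. Cenpa, a centromeric histone, was at 24, 39.7 and 24.6 CPM at T0 and 3.13, 3.78 and 3.84 CPM at T32 (-3.03 ± 0.25, adjusted p = 2.1e-08). Ube2c, the ubiquitin carrier of the anaphase-promoting complex, was at 1.58, 5.33 and 3.2 CPM at T0 and 0.458, 0.361 and 0.371 CPM at T32 (-3.08 ± 0.40, adjusted p = 6.2e-06). Ccnb2 (cyclin B2) was at 2.26, 3.53 and 2.79 CPM at T0 and 0.535, 0.417 and 0.557 CPM at T32 (-2.50 ± 0.37, adjusted p = 2.3e-05). All 3 were low at T32 in every library. Cdk1, the kinase that drives entry into mitosis, fell (-0.80 ± 0.22, adjusted p = 0.0071), a call lost without T0 replicate 2 (-0.54, adjusted p = 0.074). The member that rose was Tpx2, a spindle assembly factor, at 10.5, 7.86 and 10.1 CPM at T0 and 28.9, 37.4 and 34 CPM at T32 (1.81 ± 0.25, adjusted p = 1.1e-05), with a mean of 109 CPM at T6. In the promoters, the cell cycle homology region (CHR, TTTGAA, both strands) was found in 8 of 21 of the mitosis list and in 10.6% of all promoters. The CCAAT box (CCAAT, both strands) was found in 18 of 21, against 36.2% of all. The CHR was also in 5 of 9 promoters of the GBP and IRG list and in 8 of 19 of the inflammasome and cell death list. The CCAAT box was in 14 of 15 of the cholesterol synthesis list, so neither motif was particular to the mitosis list. The promoters of Ccnb2 (chr9:70421555-70421804, minus strand) and Ube2c (chr2:164769679-164769928, plus strand), each with both motifs, are shown with the matches in capitals. In Ube2c a match on each strand overlaps. By GENCODE, Ube2c starts at 164769898, within its window, and its CHR match lies after that start.
Ccnb2: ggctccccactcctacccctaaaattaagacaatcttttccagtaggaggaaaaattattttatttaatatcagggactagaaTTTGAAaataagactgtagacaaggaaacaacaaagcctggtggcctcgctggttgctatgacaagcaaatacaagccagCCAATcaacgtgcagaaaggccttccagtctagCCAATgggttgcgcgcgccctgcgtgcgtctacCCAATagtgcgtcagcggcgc
Ube2c: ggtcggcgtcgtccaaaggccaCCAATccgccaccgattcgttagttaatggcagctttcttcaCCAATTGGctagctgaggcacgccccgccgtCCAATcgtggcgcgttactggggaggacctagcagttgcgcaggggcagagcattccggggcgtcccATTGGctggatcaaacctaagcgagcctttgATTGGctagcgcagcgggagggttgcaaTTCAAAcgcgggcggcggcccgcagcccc

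DNA replication genes moved less. Of 25 tested, 3 rose and 8 fell (18.2% and 20.0% of all genes), none beyond 2-fold, with a median log2 change of -0.23. Under library totals none rose and 14 fell. Falls numbered 5 without T0 replicate 1 or without T32 replicate 3. Mcm6, a helicase subunit, was at 55.7, 39.9 and 51.9 CPM at T0 and 35.7, 32.2 and 30.2 CPM at T32 (-0.59 ± 0.19, adjusted p = 0.020). Rrm1, a ribonucleotide reductase subunit, was at 22.4, 19 and 23 CPM at T0 and 17.1, 14.2 and 15 CPM at T32 (-0.48 ± 0.16, adjusted p = 0.022). E2f1, a transcription factor of S phase entry, was at 37.4, 46.8 and 44.9 CPM at T0 and 60, 54.5 and 59.4 CPM at T32 (0.43 ± 0.13, adjusted p = 0.015). None of these 3 calls held under every alternative. That of Mcm6 was lost without T0 replicate 1 or 3, or T32 replicate 2 or 3 (-0.58 to -0.49, adjusted p = 0.058 to 0.070). That of Rrm1 was lost without T0 replicate 1 or 3, or T32 replicate 2 or 3 (-0.46 to -0.42, adjusted p = 0.051 to 0.089). That of E2f1 was lost without T0 replicate 1 (0.34, adjusted p = 0.063) and was 0.08 under library totals, adjusted p = 0.69.

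Cytosolic ribosomal protein genes fell in 19 of 23 members and none rose, against 20.0% and 18.2% of all genes. Of the falls, 4 were by more than 2-fold (4.33% of all genes), and the median log2 change was -1.34. Most have near-identical pseudogene copies and the authors counted uniquely aligned reads only, so their counts are uncertain: Rps6 was left out with at most 4 counts in any of the 6 libraries. Rpl8 was at 376, 612 and 500.1 CPM at T0 and 228, 208 and 241 CPM at T32 (-1.14 ± 0.22, adjusted p = 0.00041). Rps3 was at 309, 382 and 334 CPM at T0 and 207, 191 and 204 CPM at T32 (-0.77 ± 0.14, adjusted p = 0.00019). T0 replicate 1 was the lowest T0 library for both but above every T32 library. Without it the median was -1.57, and without T0 replicate 2 it was -1.08.

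A list of glycolysis genes and targets of hypoxia-inducible factor (HIF) rose in 13 of 21 members (18.2% of all genes). Rises beyond 2-fold numbered 5 (4.11% of all genes). None fell by edgeR's test (20.0% of all genes), and the median log2 change was 0.80. Under library totals 10 rose and 2 fell. Pfkfb3, which makes an activator of phosphofructokinase, was at 79.3, 45.3 and 52.2 CPM at T0 and 656, 621 and 566 CPM at T32 (3.38 ± 0.24, adjusted p = 2.9e-09). Slc2a1 (GLUT1), the glucose transporter, was at 12.1, 19.2 and 16.2 CPM at T0 and 80.8, 96.3 and 65.1 CPM at T32 (2.35 ± 0.20, adjusted p = 3.3e-08). Hk3, a hexokinase, was at 516, 402 and 419.5 CPM at T0 and 964, 1000.5 and 985 CPM at T32 (1.14 ± 0.19, adjusted p = 8.7e-05). These 3 did not overlap. Aldoa (aldolase) was at 392, 412 and 424 CPM at T0 and 591, 606 and 538 CPM at T32 (0.50 ± 0.13, adjusted p = 0.0044) and lost its call under the other scaling (0.15 under library totals, adjusted p = 0.36). Gapdh was left out with at most 2 counts in any of the 6 libraries.

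Nuclear-encoded respiratory chain genes had a median log2 change of -0.07. Of 26 tested, 5 rose and 2 fell, against 18.2% and 20.0% of all genes. Under library totals none rose and 12 fell. Rises numbered 1 without T0 replicate 2, 3 without T0 replicate 3, and 2 without T32 replicate 1 or 3. Falls numbered 4 without T0 replicate 1 and 0 without any 1 of T0 replicates 2 and 3 and T32 replicates 1 and 2. Atp5b, a subunit of ATP synthase, was at 322, 177 and 224 CPM at T0 and 382, 325 and 365 CPM at T32 (0.57 ± 0.20, adjusted p = 0.034), and its call was lost without T0 replicate 2 or 3, or T32 replicate 1 or 3 (0.39 to 0.56, adjusted p = 0.072 to 0.18). Cox4i1, a subunit of cytochrome oxidase, fell (-0.78 ± 0.27, adjusted p = 0.030), a call that was lost without T0 replicate 2 or 3, or T32 replicate 1 or 2 (-0.76 to -0.64, adjusted p = 0.075 to 0.12). Sdhb, of succinate dehydrogenase, was at 106, 89.3 and 95.5 CPM at T0 and 136, 135 and 145 CPM at T32 (0.52 ± 0.13, adjusted p = 0.0047), lost under the other scaling (0.17 under library totals, adjusted p = 0.24). RNAs encoded by the mitochondrial genome fell in 13 of 14 genes, against 20.0% of all genes, with a median log2 change of -1.98. Of these, mt-Nd1 was at 567, 2644 and 2079 CPM at T0 and 332, 504 and 417 CPM at T32 (-2.08 ± 0.45, adjusted p = 0.0012), so T0 replicate 1 lay closer to the T32 libraries than to the other T0 libraries. The part of RNA quality in these values was not tested. Tricarboxylic acid cycle genes rose in 3 of 19 members and fell in 6, against 18.2% and 20.0% of all genes. Under library totals none rose and 9 fell. Without T32 replicate 1 or 3, 1 rose. Idh1, the cytosolic isocitrate dehydrogenase, was at 243, 182 and 215 CPM at T0 and 80.5, 86.5 and 81.3 CPM at T32 (-1.37 ± 0.14, adjusted p = 1.9e-07). Mdh1, the cytosolic malate dehydrogenase, was at 121, 117 and 134 CPM at T0 and 68.5, 72.4 and 74.9 CPM at T32 (-0.78 ± 0.12, adjusted p = 2.7e-05). The mitochondrial enzyme gene Mdh2 rose (0.59 ± 0.14, adjusted p = 0.0028), lost under the other scaling (0.25 under library totals, adjusted p = 0.13).

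Cholesterol synthesis genes fell in 7 of 21 members (20.0% of all genes), and none rose by edgeR's test, with a median log2 change of -0.31. Under library totals 11 fell and the median was -0.66. Cyp51, a sterol demethylase, was at 12.8, 23.5 and 20.1 CPM at T0 and 7.79, 7.31 and 7.82 CPM at T32 (-1.30 ± 0.30, adjusted p = 0.0020). Sc5d, a sterol desaturase, was at 19.1, 15.9 and 18.1 CPM at T0 and 11.7, 12.1 and 11.4 CPM at T32 (-0.59 ± 0.17, adjusted p = 0.0098). Dhcr7, the enzyme of the last step, was at 14.4, 16 and 16.2 CPM at T0 and 9.09, 8.09 and 9.28 CPM at T32 (-0.81 ± 0.17, adjusted p = 0.0011). Each lay below its T0 values in every T32 library. Targets of the sterol receptor LXR and lipid handling genes rose in 2 of 15 members and fell in 3, near the 18.2% and 20.0% of all genes. Each of these changes was also beyond 2-fold, as in 4.11% of all genes that rose and 4.33% that fell. Under library totals 2 rose and 8 fell, and without T0 replicate 2, 6 fell. Lpl (lipoprotein lipase) was at 827, 1003 and 1190.0 CPM at T0 and 368, 387 and 199.8 CPM at T32 (-1.66 ± 0.29, adjusted p = 0.00015). Nr1h3 (LXRα) was at 57.6, 68.4 and 61.5 CPM at T0 and 211, 194 and 211 CPM at T32 (1.72 ± 0.25, adjusted p = 2.2e-05), and Fabp5, a fatty acid carrier with pseudogene copies, was at 90.1, 41.7 and 57.5 CPM at T0 and 183, 214 and 218 CPM at T32 (1.70 ± 0.25, adjusted p = 2.3e-05). The cholesterol exporter Abca1 did not pass (0.83 ± 0.42, adjusted p = 0.12), but passed in the fit to the 6 libraries (0.81, adjusted p = 0.032, and 0.89, adjusted p = 0.020 with the replicate block) and without T0 replicate 1 (1.21, adjusted p = 0.042).

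Lysosome genes rose and fell at shares near those of all genes. Of 29 tested, 7 rose (18.2% of all genes) and 6 fell (20.0% of all genes), and the median log2 change of 0.11 turned to -0.23 under library totals, where 3 rose and 12 fell. Ctsc (cathepsin C) was at 398, 269 and 302 CPM at T0 and 1474, 1528 and 1362 CPM at T32 (2.17 ± 0.26, adjusted p = 2.4e-06). Hexa, a hexosaminidase subunit, was at 1403, 1373 and 1382 CPM at T0 and 472, 483 and 553 CPM at T32 (-1.46 ± 0.15, adjusted p = 2.5e-07). Ctsz (cathepsin Z) was at 1522, 1562 and 1548 CPM at T0 and 2503, 2391 and 3053 CPM at T32 (0.78 ± 0.19, adjusted p = 0.0037), lost under the other scaling (0.43 under library totals, adjusted p = 0.057). Ctsc and Hexa moved in opposite directions, each without overlap.

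Stress response genes changed in both directions, against 18.2% of all genes that rose and 20.0% that fell. Targets of the antioxidant factor NRF2 rose in 5 of 18 members and fell in 4, and the median of 0.10 turned to -0.24 under library totals. Hmox1 (haem oxygenase 1) was at 982, 485 and 602 CPM at T0 and 2532, 2429.9 and 2136 CPM at T32 (1.78 ± 0.21, adjusted p = 1.8e-06). Prdx1, a peroxiredoxin, was at 553, 502 and 688 CPM at T0 and 1112, 1396 and 1184 CPM at T32 (1.08 ± 0.22, adjusted p = 0.00072). Gpx1, a glutathione peroxidase, fell (-0.71 ± 0.28, adjusted p = 0.049), a call that was lost without T0 replicate 2 or 3, or T32 replicate 1, 2 or 3 (-0.79 to -0.52, adjusted p = 0.067 to 0.22). Integrated stress response genes rose in 5 of 18 members and fell in 1, and their median of 0.23 turned to -0.11 under library totals, where 4 rose and 4 fell. Slc3a2, a chain of amino acid transporters, was at 646, 330.1 and 517 CPM at T0 and 896, 851 and 955 CPM at T32 (0.86 ± 0.19, adjusted p = 0.0016). Aars, an aminoacyl-tRNA synthetase, was at 167, 85.4 and 126 CPM at T0 and 260.0, 209 and 221 CPM at T32 (0.86 ± 0.18, adjusted p = 0.00072). Nupr1, a stress-induced nuclear protein, was at 30.9, 43.9 and 45.4 CPM at T0 and 176, 150.2 and 218 CPM at T32 (2.18 ± 0.35, adjusted p = 6.7e-05). The member that fell was Shmt2 (-0.67 ± 0.13, adjusted p = 0.00050), an enzyme of serine and folate metabolism.

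Markers of other cell types were examined beside these results. Of 15 neutrophil markers 11 fell and 3 rose, against 20.0% and 18.2% of all genes. All 11 falls were by more than 2-fold (4.33% of all genes), and the median log2 change of the list was -2.44. S100a9, a subunit of calprotectin, was at 175, 215 and 190.1 CPM at T0 and 28.5, 43.5 and 37.9 CPM at T32 (-2.40 ± 0.33, adjusted p = 1.1e-05). Ngp (neutrophilic granule protein) was at 197, 192 and 165 CPM at T0 and 18.7, 28.4 and 23.8 CPM at T32 (-2.96 ± 0.29, adjusted p = 1.9e-07), and Ltf (lactoferrin) was at 165, 140.3 and 134 CPM at T0 and 16.5, 28.4 and 19.9 CPM at T32 (-2.76 ± 0.27, adjusted p = 1.7e-07). All T32 libraries lay below all T0 libraries for these. The 3 markers that rose were Lcn2, Mmp8 and Csf3r, of which Csf3r, the receptor of the granulocyte growth factor, was at 124, 189 and 129 CPM at T0 and 306, 313 and 297 CPM at T32 (1.06 ± 0.19, adjusted p = 0.00022). The summed level of the 15 was 841 to 1012 CPM at T0 and 989 to 1123 CPM at T32, with Lcn2 included. The part of neutrophil lineage cells in the falls of S100a4, Camp and other genes was not tested.

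The marker counts that follow stand beside 18.2% of all genes that rose and 20.0% that fell. Markers of T, B and NK cells were scarce. Their summed level was 28.2 to 45.3 CPM at T0 and 17.7 to 26.7 CPM at T32, and Cd3e and Cd3g had at most 6 and 5 counts in any of the 6 libraries. Of 7 tested none rose and 2 fell, among them Cd79b (-1.89 ± 0.35, adjusted p = 0.00027). Dendritic cell markers rose in 2 of 11 and fell in 5. Batf3, a factor of cross-presenting dendritic cells, was at 4.72, 8.28 and 6.09 CPM at T0 and 1.49, 1.47 and 1.86 CPM at T32 (-1.98 ± 0.45, adjusted p = 0.0019). Ccr7, a lymph node homing receptor, was at 1.13, 1.56 and 1.72 CPM at T0 and 3.36, 4.53 and 2.57 CPM at T32 (1.25 ± 0.32, adjusted p = 0.0048). Kit, a receptor of progenitor and mast cells, fell (-1.54 ± 0.38, adjusted p = 0.0033). Their summed level was 979 to 1174 CPM at T0 and 1563 to 1796 CPM at T32, most of it from Bst2 and Irf8, which macrophages also express. Xcr1 had at most 3 counts in any library, and Cd209a was at 0 in all T32 libraries. Erythroid markers fell in 4 of 5. Tfrc, the transferrin receptor, which macrophages also express, was at 415, 294 and 342 CPM at T0 and 45.1, 58.5 and 54.7 CPM at T32 (-2.73 ± 0.30, adjusted p = 6.8e-07). Epor fell (-3.74 ± 0.43, adjusted p = 1.3e-06), and Hba-a1 was at 0.0502, 0.658 and 0.241 CPM at T0 and at 0 in all T32 libraries. The summed erythroid level was 300.5 to 421 CPM at T0 and 45.2 to 59 CPM at T32, nearly all from Tfrc. Mast cell and basophil markers summed to 4.68 to 7.1 CPM at T0 and 9.24 to 14.2 CPM at T32, with 1 of 4 up, Hdc (1.35 ± 0.28, adjusted p = 0.00070), and Cpa3 at no more than 8 counts. Stromal and endothelial markers rose in 3 of 12, Kdr (1.58 ± 0.35, adjusted p = 0.0013), Vcam1 (0.98 ± 0.21, adjusted p = 0.0011) and Pecam1 (1.11 ± 0.36, adjusted p = 0.020), the latter a call lost without T0 replicate 1 or 3, or T32 replicate 2 (0.78 to 1.08, adjusted p = 0.058 to 0.13). They summed to 92.8 to 125 CPM at T0 and 137 to 350.1 CPM at T32. The part of these cell types in the results was not tested.

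**Figure D4:**
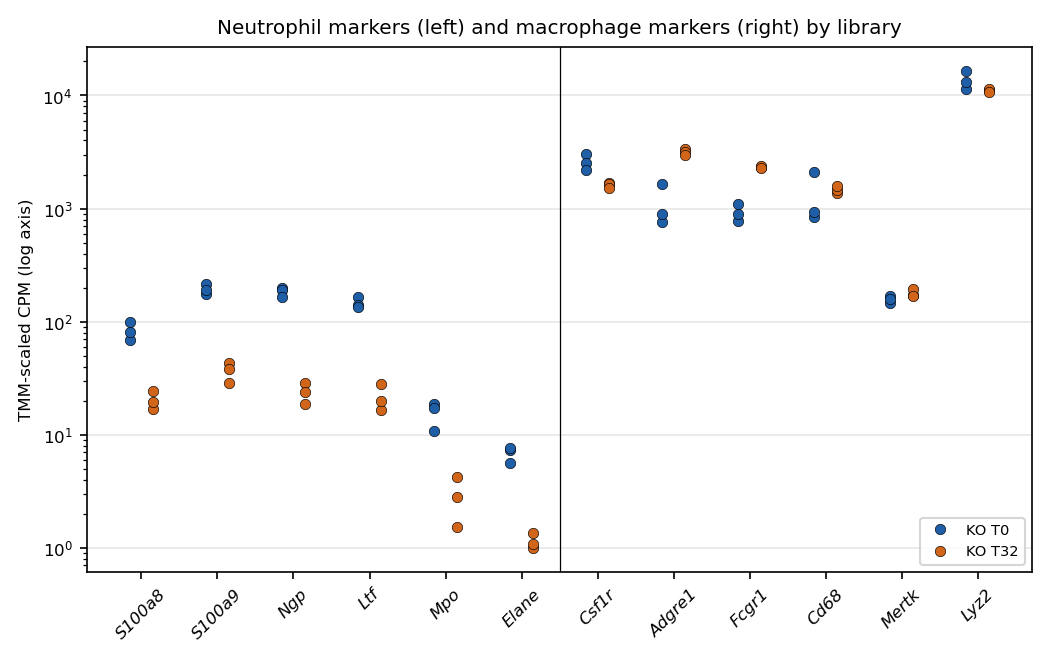
TMM-scaled CPM (log axis) of 6 neutrophil markers (left of the line) and 6 macrophage markers (right) in each of the 3 KO T0 and 3 KO T32 libraries; each point is a library. The neutrophil markers are lower in all T32 libraries, for example Ngp at 18.7, 28.4 and 23.8 against 197, 192 and 165 CPM at T0, while macrophage markers go up (Adgre1), down (Csf1r) or overlap (Cd68).

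The change from T0 to T32 was then compared with the same change in WT-labelled libraries, by the difference of the 2 changes (KO change minus WT change) in the same edgeR fit. It passed for 61 of 15782 genes, with the KO change higher in 14 (0.0887%) and lower in 47 (0.298%), while 1429 had an unadjusted p under 0.05. Of the 24 genes with the largest rises and falls in the KO-labelled libraries none passed by this test. Igfbp4 was nearest (-1.66 ± 0.39, adjusted p = 0.066) and passed with DESeq2 (-1.65, adjusted p = 0.0070), under library totals (-1.73, adjusted p = 0.044) and without WT T32 replicate 3 (-1.89, adjusted p = 0.033). In WT, T0 replicate 2 and T32 replicate 3 had summed levels of 4 Y-linked genes of 103 and 109 CPM, whereas no other of the 12 libraries exceeded 0.0928 CPM. Without the former the difference passed for 49 genes and without the latter for 45. The 5 largest differences in each direction are described here among genes also called in the KO-labelled libraries that had at least 5 CPM in the higher of the 2 KO groups and no overlap between them, with the levels of both genotypes side by side.

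Tspan13, a tetraspanin, was at 30.3, 30.5 and 39.2 CPM at T0 and 40.5, 56.3 and 54.1 CPM at T32 in libraries labelled KO, whereas in WT it went from 27.5 ± 3.6 to 6.42 ± 0.665 CPM (SD, n = 3). The KO change was 0.60 ± 0.17 and the WT change -2.10 ± 0.18, so the genotypes moved in opposite directions (difference 2.70 ± 0.25, adjusted p = 1.8e-05). The rise within KO alone was not stable, being lost without T0 replicate 2, or T32 replicate 2 (0.51 to 0.54, adjusted p = 0.051 to 0.054) and 0.24 under library totals, adjusted p = 0.31. Pdpn (podoplanin), a membrane glycoprotein of activated macrophages, was at 33.9, 27.1 and 37.6 CPM at T0 and 163, 170.1 and 157 CPM at T32, against 21.5 ± 1.77 to 29.3 ± 8.81 CPM in WT (difference 1.87 ± 0.26, adjusted p = 0.0019). Its groups in KO did not overlap, and the WT change was 0.44 ± 0.19. Cd200, an inhibitory ligand, was at 7.28, 2.22 and 4.54 CPM at T0 and 22.5, 32.9 and 27.4 CPM at T32 and in WT at 3.89 ± 0.524 and 4.6 ± 1.37 CPM (difference 2.30 ± 0.41, adjusted p = 0.014). Htr2b, a serotonin receptor, was at 16, 11.7 and 10.3 CPM at T0 and 30.3, 44.9 and 36.2 CPM at T32 and in WT at 6.76 ± 2.25 and 4.1 ± 1.94 CPM (difference 2.28 ± 0.41, adjusted p = 0.014). Pde5a, a cyclic GMP phosphodiesterase, was at 1.81, 1.87 and 2.06 CPM at T0 and 11.3, 11.3 and 11 CPM at T32 and in WT at 1.85 ± 0.332 and 2.74 ± 1 CPM (difference 1.99 ± 0.42, adjusted p = 0.039). In a fit to the 12 libraries of T0 and T32 alone the difference of Cd200 had adjusted p = 0.055 and that of Htr2b 0.058. The difference of Htr2b also failed without KO T32 replicate 2 or WT T0 replicate 3 (1.99 to 2.12, adjusted p = 0.053 to 0.061). That of Pde5a passed without WT T32 replicate 1 but not without any of the other 11 libraries (1.81 to 2.06, adjusted p = 0.052 to 0.14).

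Lower KO changes included interferon-induced genes whose untreated mean was higher in libraries labelled KO than in WT. Slfn1 was at 189, 115 and 166 CPM at T0 and 507, 526 and 507 CPM at T32, against 20.2 ± 3.41 to 339 ± 53.2 CPM in WT (difference -2.36 ± 0.28, adjusted p = 0.00047). Ifi44 was at 263, 136 and 181 CPM at T0 and 479, 691 and 569.6 CPM at T32, against 34 ± 6.97 to 343 ± 27.7 CPM in WT (difference -1.75 ± 0.29, adjusted p = 0.0098). Ms4a4c was at 246, 182 and 221 CPM at T0 and 1054, 1459.5 and 1313 CPM at T32, against 41.7 ± 9.21 to 772 ± 134 CPM in WT (difference -1.65 ± 0.28, adjusted p = 0.0098). In each of these 3 the KO-labelled mean was above the WT mean at T0 and at T32. Slfn4 ended at a KO mean of 6209.8 ± 729.8 against 1868 ± 683 CPM in WT, from 523 ± 228 and 32.1 ± 6.3 CPM (difference -2.29 ± 0.49, adjusted p = 0.042). It passed without KO T0 replicate 1 or 2 or WT T32 replicate 1 or 2, but failed without any 1 of the other 8 libraries (-2.39 to -1.87, adjusted p = 0.074 to 0.13) or with almost no filter (-2.28, adjusted p = 0.13). Gm12892, a processed pseudogene, was at 6.8, 4.36 and 4.51 CPM at T0 and 2.79, 2.42 and 2.04 CPM at T32 and in WT at 4.78 ± 0.213 and 8.2 ± 0.918 CPM (difference -1.90 ± 0.39, adjusted p = 0.028). It passed without KO T0 replicate 2 or 3, KO T32 replicate 1 or WT T32 replicate 1, but not without any of the other 8 libraries (-1.94 to -1.66, adjusted p = 0.053 to 0.10). Of the 30 antiviral genes, 5 had a lower KO change, against 0.298% of all genes. They were Slfn4, Ifi44, Irf7 (-1.59 ± 0.33, adjusted p = 0.039), Zbp1 (-1.42 ± 0.26, adjusted p = 0.014) and Oasl2 (-0.98 ± 0.17, adjusted p = 0.012). The list median was 1.20 in KO and 2.43 in WT. The difference of Irf7 passed when WT T0 replicate 1, WT T32 replicate 1 or 2, or KO T0 replicate 2 or 3 was left out, but not without any of the other 7 libraries (-1.68 to -1.35, adjusted p = 0.051 to 0.11) or in the fit to 12 libraries (-1.59, adjusted p = 0.051). The KO change of Oasl2 alone was also lost without T0 replicate 2, or T32 replicate 2 (0.33 to 0.35, adjusted p = 0.065 to 0.076) and 0.03 under library totals, adjusted p = 0.87. Pseudogenes made up 23 of the 47 genes with a lower KO change (48.9%) and none of the 14 with a higher one, against 9.05% of all genes tested. For the list of cytosolic ribosomal protein genes the median was -1.34 in KO and -0.79 in WT. Of its 23 members 2 had a lower KO change, against 0.298% of all genes. They were Rps2 (-1.48 ± 0.31, adjusted p = 0.040) and Rpl7 (-1.13 ± 0.21, adjusted p = 0.015). Without 1 library at a time, that of Rps2 failed for all except KO T0 replicate 2 and KO T32 replicate 3 (-1.55 to -1.26, adjusted p = 0.056 to 0.14). That of Rpl7 failed for KO T32 replicates 2 and 3 and WT T0 replicate 3 (-1.13 to -1.09, adjusted p = 0.057 to 0.066). In the fit to 12 libraries and with almost no filter both failed, with adjusted p = 0.053 and 0.096 for Rps2 and 0.051 and 0.24 for Rpl7. In the receptor list Ccr1, a chemokine receptor, was at 50, 30 and 47 CPM at T0 and 182, 227 and 207 CPM at T32 in KO and at 41.5 ± 3.01 and 84.5 ± 9.47 CPM in WT (difference 1.25 ± 0.22, adjusted p = 0.014). Nos2 reached 88.5 ± 75.7 CPM at T32 in WT from 2.21 ± 3.57, a difference of changes of 3.12 ± 1.11, adjusted p = 0.29 that did not pass.

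**Figure D5:**
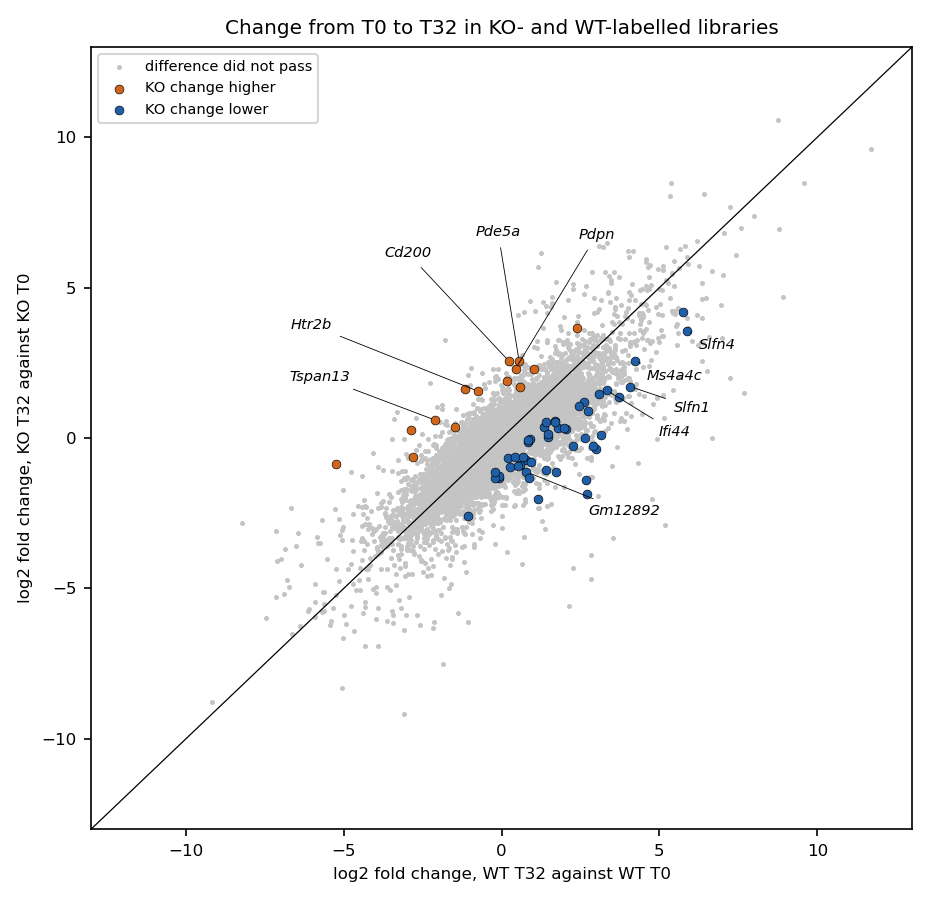
Log2 fold change from T0 to T32 in KO-labelled (vertical) and WT-labelled libraries (horizontal) for each of 15782 genes, with the line of equal change. Coloured points are the 61 genes whose changes differed by the edgeR test, 14 above the line and 47 below it, and the 10 named are those with the 5 largest differences in each direction among genes also called within KO, with at least 5 CPM in the higher KO group and no overlap.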

How the data were processed

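Polyadenylated RNA of mouse BMDMs was sequenced as single-end reads, and 6 of 23 libraries form the main comparison. The versions of GSNAP and GRCm38, named in the submitters' processing notes, the counting tool and the annotation were not given in the sources used here. Raw counts were deposited, per the file headers, as numbers of reads aligning uniquely to a gene model, so genes with near-identical copies are undercounted, together with the authors' size-factor-adjusted RPKM, used here only to compare levels between genes. The library kit named in the labels' protocols does not keep strand, so overlapping and antisense genes cannot be told apart.

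Counts of all 23 libraries were fitted with edgeR 4.0.16 in R 4.3.3 (TMM, filterByExpr, robust quasi-likelihood, 1 mean per group), with contrasts KO T32 against T0 and the same change against WT. Of 52636 genes, 15782 passed the filter. Benjamini-Hochberg adjustment ran over these, a change beyond 2-fold was tested with glmTreat, and SE is the change divided by the square root of F. Mean ± SD are of TMM-scaled CPM. Gene positions are from GENCODE M21. Counts of the KO contrast were also simulated (15650 genes). Of 100 genes given a 2-fold change 57 were called, and of 100 given a 4-fold change 95. False calls numbered 3 among 15450 unchanged genes. Only these few genes were changed, with the spread of the fit itself, whereas 38.2% of genes were called in the data. The simulated shares are therefore not the power or error rate of the real test.

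The genes named are the 12 largest rises and 12 largest falls among called genes that had a symbol, at least 5 CPM in the higher group and no overlap between groups, the 5 largest differences from WT in each direction among called genes under the same limits, the 3 most abundant called members of each list, and members on which a sentence turns; some genes that meet this rule are not reported here. Members, lists and tests were chosen with earlier results of these data known. Alternatives were other scalings, filters, sets of libraries, DESeq2 1.42.0 and each library left out.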

Additional observations from a re-analysis of the deposited data

Results flagged for a closer look

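The change from T0 to T32 in libraries labelled KO differed from that in WT libraries, by edgeR's test of the difference over all genes, in 18 of the genes named above or here. KO minus WT differences were positive for Tspan13 (2.70), Cd200 (2.30), Htr2b (2.28), Pde5a (1.99), Pdpn (1.87) and Ccr1 (1.25). They were negative for Slfn1 (-2.36), Slfn4 (-2.29), Gm12892 (-1.90), Ifi44 (-1.75), Ms4a4c (-1.65), Irf7 (-1.59), Rps2 (-1.48), Zbp1 (-1.42), Rpl7 (-1.13) and Oasl2 (-0.98).

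Both other genes were chosen after their values were seen. Il1r1, the signalling receptor of interleukin-1, was at 2.58, 2.01 and 2.24 CPM at T0 and 7.03, 10.5 and 7.69 CPM at T32 in libraries labelled KO and at 1.47 ± 0.0389 and 1.67 ± 0.675 CPM in WT (difference 1.71 ± 0.34, adjusted p = 0.024). It failed without KO T0 replicate 3, KO T32 replicate 2 or any 1 of the 3 WT T0 libraries (1.52 to 1.72, adjusted p = 0.050 to 0.088), and in the fit to 12 libraries (1.71, adjusted p = 0.072). Id2, an inhibitor of helix-loop-helix factors, was at 80.6, 58.4 and 75.6 CPM at T0 and 213, 247 and 243 CPM at T32 in libraries labelled KO and at 70.5 ± 9.72 and 105 ± 15.3 CPM in WT (difference 1.13 ± 0.22, adjusted p = 0.019). It failed without KO T32 replicate 2 or 3, WT T0 replicate 1 or 3, or WT T32 replicate 2 (1.02 to 1.11, adjusted p = 0.052 to 0.081). The difference of Pde5a also failed under library totals (1.95, adjusted p = 0.051).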

How the results depend on the processing

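Of 6021 calls, library totals in place of TMM gave 7254 (4637 shared), with 1484 up, 5770 down, and 1162 down by more than 2-fold. With 1 library left out, calls numbered 4425 to 6769 (2138 to 3332 up, 2287 to 3437 down), lowest without KO T0 replicate 2, of whose 4297 shared calls 4296 kept their direction. Calls numbered 6019 with median-of-ratios scaling, 5180 with almost no filter, 5636 with a filter of 1 CPM, 6460 with DESeq2, 5841 with KO libraries only and 5886 with the 6 libraries only. Replicates are numbered here in sample order, which need not match the submitters' replicate numbers. Deviations from the group mean correlated little between T0 and T32 libraries of the same number (r of 0.035, 0.076 and 0.0065). Because these matches follow sample order, and with 3 libraries per group, they cannot settle whether the samples were paired. T0 replicates 1 and 2 correlated best with their own number and T0 replicate 3 with T32 replicate 1 (0.032). The replicate block, added after seeing the data and built on the submitters' replicate numbers, gave 5505 calls in the 6-library fit.

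Genes that differed from WT numbered 232 with DESeq2 (72 higher and 160 lower in KO), 79 under library totals, 70 in the fit to 12 libraries, 72 with the 1 CPM filter and 29 to 84 with 1 library left out (5 to 18 higher, 24 to 66 lower). The count of 29 was without KO T32 replicate 2 and that of 84 without KO T0 replicate 2.

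Signs turned only in genes that did not pass: under library totals Cd68 (-0.14), Mertk (-0.18), Rela (-0.22) and Tlr4 (-0.078), and with 1 library left out Cd68 (-0.051 to 0.72). Of 258 genes followed, 242 were called; 22 lost the call under library totals and 26 with some library left out, and none of the called ones turned sign. Among called members not described above, Sqle lost its call without any 1 of the 6 libraries. The cause was not tested. Depth limits genes of few counts: Il23r and Gm15056 had 1 count at T0.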

Other observations

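Several genes of the circadian clock, chosen after their values were seen and not tested as a list, were among the RNAs that fell. Dbp, a clock-controlled transcription factor, was at 67.1, 62.9 and 64.3 CPM at T0 and 6.34, 7.23 and 8.14 CPM at T32 (-3.16 ± 0.32, adjusted p = 2.2e-07 by edgeR). Its relative Tef was at 114, 116 and 109 CPM at T0 and 28.9, 28.1 and 27.5 CPM at T32 (-2.01 ± 0.17, adjusted p = 2.7e-08). Per3, a period gene, was at 26.8, 24.1 and 27.2 CPM at T0 and 3.63, 2.64 and 3.63 CPM at T32 (-2.98 ± 0.25, adjusted p = 2.0e-08). The repressor genes Nr1d1 (-2.29 ± 0.28, adjusted p = 3.2e-06) and Nr1d2 (-0.95 ± 0.21, adjusted p = 0.0014) and Ciart (-1.62 ± 0.28, adjusted p = 0.00016) fell as well. Dbp was lower still at T6, with a mean of 2.29 CPM, and the hours of sampling were not given in the sources used here. Per1, Cry1, Arntl and Clock, other clock genes, did not pass the test.

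Among the Id genes, inhibitors of helix-loop-helix factors and likewise chosen after their values were seen, Id1 fell from 1.33, 4.88 and 2.62 to 0.497, 0.445 and 0.557 CPM (-2.54 ± 0.54, adjusted p = 0.00096 by edgeR), like Id3 above, whereas Id2 rose (1.71 ± 0.16, adjusted p = 7.6e-08).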
